A study of Mus musculus with 12 samples.

Results

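The nuclear genome encodes most proteins of the mitochondrial respiratory chain and of ATP synthase. Their mRNAs were followed in cultured adult dorsal root ganglion neurons of the mouse after knockdown of Larp1. The genes were taken by symbol from the count table: Ndufa, Ndufb, Ndufc, Ndufs and Ndufv genes with a number, Uqcr, Atp5, Cox4 to Cox8 with a letter, the Sdh subunit genes, Cyc1 and Cycs. Assembly factors of the Ndufaf kind and pseudogenes were left out. The rule gave 85 of the 15391 genes in the table. Of these, 37 belong to complex I, 4 to complex II, 9 to complex III, 17 to complex IV and 17 to complex V, and Cycs encodes the carrier cytochrome c. Ndufa4 and Ndufa4l2 were counted with complex IV, where the protein Ndufa4 is known to sit. Ndufb1-ps, named like a pseudogene, is listed by RefSeq as the protein-coding gene Ndufb1 and was kept. Atp5s, caught by its symbol, is listed by RefSeq as Dmac2l and is no subunit of the enzyme.

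The 4 groups share the genotype RPL22HA+/+;Advillin-Cre+ and preconditioning, an injury of the sciatic nerve made before the culture. RiboTag tags the ribosomal protein Rpl22 with HA in cells with Cre, here driven by Advillin in sensory neurons, so that ribosomes of these cells and their mRNA can be immunoprecipitated (IP). IP and input RNA were sequenced for a control virus (AAV-Control in the IP titles, AAV-shControl in the input titles) and for AAV-shLarp1, which carries a short hairpin RNA against Larp1, an RNA-binding protein. Each group has 3 columns of estimated counts. The input holds RNA of every cell in the culture, and the IP is meant to hold mainly that of ribosomes with the tag.

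Electrons enter the chain at complex I (NADH dehydrogenase) and complex II (succinate dehydrogenase), pass through ubiquinone to complex III (cytochrome bc1) and by cytochrome c to complex IV (cytochrome c oxidase). Complexes I, III and IV pump protons, and complex V (ATP synthase) uses the gradient to make ATP. All of these complexes except complex II also hold subunits encoded by mitochondrial DNA, so assembly joins the products of both genomes. Long axons of sensory neurons depend on mitochondria and their ATP supply.

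Promoters of respiratory chain genes are known for binding motifs of NRF1 (nuclear respiratory factor 1) and of ETS factors such as GABP. In the RefSeq table of promoters (GRCm38.p6, 250 bases before to 50 after each start), 68 of the 85 genes had an entry. The NRF1 motif GCGCANGCG, searched on both strands, was in 21 of 68 (30.88%), against 9.627% of 17492 protein-coding genes. The ETS motif CCGGAAG, also on both strands, was in 16 of 68 (23.53%), against 12.95%. Both motifs were present in 6 members and neither in 37, and neither motif contains the other. By complex, the NRF1 motif was found in 8 of 32 genes of complex I, 2 of 3 of complex II, 2 of 5 of complex III, 1 of 12 of complex IV and 7 of 15 of complex V. These matches describe the letters in the window and do not show binding. The stretches below were chosen to show the motif in genes of complexes I, II, IV and V and in Cycs. Of the members flagged below for a difference between input and IP, Ndufv1 and Atp5f1 hold neither motif. A link between motif and value was not tested. Sdhd and Atp5c1, flagged as well, hold the NRF1 motif and are among the stretches shown. Each runs 5′ to 3′ on the gene's strand, which is the minus strand in all of them, and capitals mark the motif on either strand.
Ndufa8 (chr2:36049339-36049398): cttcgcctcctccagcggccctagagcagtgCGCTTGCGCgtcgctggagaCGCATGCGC
Sdha (chr13:74350241-74350300): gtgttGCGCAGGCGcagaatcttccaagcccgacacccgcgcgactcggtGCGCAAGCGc
Sdhd (chr9:50603894-50603953): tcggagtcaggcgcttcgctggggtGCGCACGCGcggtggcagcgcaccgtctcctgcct
Cycs (chr6:50566596-50566655): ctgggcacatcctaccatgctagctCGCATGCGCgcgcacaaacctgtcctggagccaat
Cox6a1 (chr5:115349041-115349100): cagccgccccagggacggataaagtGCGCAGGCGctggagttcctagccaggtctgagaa
Atp5c1 (chr2:10080433-10080492): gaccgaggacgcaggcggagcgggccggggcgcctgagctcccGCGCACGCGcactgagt
Atp5k (chr5:108434415-108434474): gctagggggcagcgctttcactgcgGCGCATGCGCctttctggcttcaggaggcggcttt
Sdhd and Cox6a1 also hold the ETS motif, shown here in capitals in its reverse complement.
Sdhd (chr9:50603862-50603921): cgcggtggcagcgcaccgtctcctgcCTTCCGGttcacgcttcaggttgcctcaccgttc
Cox6a1 (chr5:115348959-115349018): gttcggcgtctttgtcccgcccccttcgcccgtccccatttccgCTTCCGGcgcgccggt

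Larp1 is known for mRNAs that begin with a C followed by a run of pyrimidines, the terminal oligopyrimidine tract. Among the 68 members with an entry, the annotated start reads as a C followed by at least 4 pyrimidines in 4 (5.882%), against 2.67% of all protein-coding genes. They are Ndufb11, Uqcrfs1, Atp5d and Atp5g2, and their first bases are shown with the tract in capitals, since it is the feature that Larp1 is known to bind.
Ndufb11 (chrX:20617600-20617619, minus strand): CTCTTTagaagcttgctgtc
Uqcrfs1 (chr13:30545297-30545316, minus strand): CTCTTCgggccgtcgttcga
Atp5d (chr10:80142315-80142334, plus strand): CCTTCggagaatcctgtgcg
Atp5g2 (chr15:102671028-102671047, minus strand): CCCTCTCTgtcttctctgcc
The start used in these cells was not measured.

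Totals per column were 3126591 to 3177552 counts in IP and 564095 to 760140 in input. Columns of a group differed by little more than random sampling gives. Of members with at least 30 counts, 2 of 82 in control IP and 5 of 85 in shLarp1 IP had chi-square p under 0.05. In input it was 2 of 73 with the control virus and 5 of 71 with shLarp1. Over all genes of that depth the shares were 7.62%, 7.07%, 7.51% and 6.98% in the same order, each above what sampling alone gives. Nothing in the labels ties a column to its own culture or animal. Each group was therefore summed and taken as 1 sample, and no p-value is given for any comparison. Intervals are 95% intervals for counting error only, since each group is 1 sample. Copies made by PCR were counted without molecular identifiers, which can make the intervals too narrow even for that error. The intervals are exact except for differences between log2 ratios, which used a normal approximation. Genes count as called when the whole interval lies beyond 1.5-fold. Values are log2 ratios after TMM scaling unless another unit is named. Larp1 itself had 442 counts in control IP and 149 in shLarp1 IP, a log2 value of -1.72, and 18 and 8 counts in the inputs. All 10 pan-neuronal and all 9 sensory neuron markers had counts in every group; the pan-neuronal ones held 0.908% and 1.04% of counts in control and shLarp1 IP and 0.184% and 0.0972% in the inputs. Markers of Schwann and satellite glia held 0.0631% and 0.0642% in IP and 0.0373% and 0.033% in input. In control and shLarp1 IP, fibroblast markers held 0.0233% and 0.0231%, macrophage markers 0.0123% and 0.0138%, and vessel markers 0.0115% and 0.0111%. Their input shares are given below. In such bulk RNA, fewer cells of a type and less RNA per cell cannot be told apart.

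In the IP, knockdown of Larp1 left the nuclear respiratory chain mRNAs close to their control level. None of the 83 members with enough counts was called in either direction, where 0.719% of all 8766 genes evaluated were called higher and 4.4% lower. The median of the members was 0.02, against -0.08 over all genes, and 75 of the 83 lay above the median of all genes. Lower medians were found for 773 genes at least 4 times as frequent in input as in IP (-0.48) and 1185 with 0 input counts (-0.46). Each of these sets holds 1 member. The other 6815 genes, with 81 of the members, had a median of -0.01, closer to that of the members. Within ±0.1 lay 66 of the 83 and within ±0.2 lay 77. Among the 65 members with at least 1000 counts in both IP groups the SD of the log2 values was 0.07 and the range -0.21 to 0.20. For 1052 other genes of that depth the SD was 0.275. Summed over all members, the ratio was 0.0013 (interval -0.0030 to 0.0056). With total counts in place of TMM it was 0.13, and the member median was 0.15, with 0 members called, so the sign of small IP values turns with the scaling. Summed by complex the TMM ratio was -0.01 for complex I, 0.10 for complex II, -0.03 for complex III, 0.01 for complex IV and 0.01 for complex V.

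**Figure D1:**
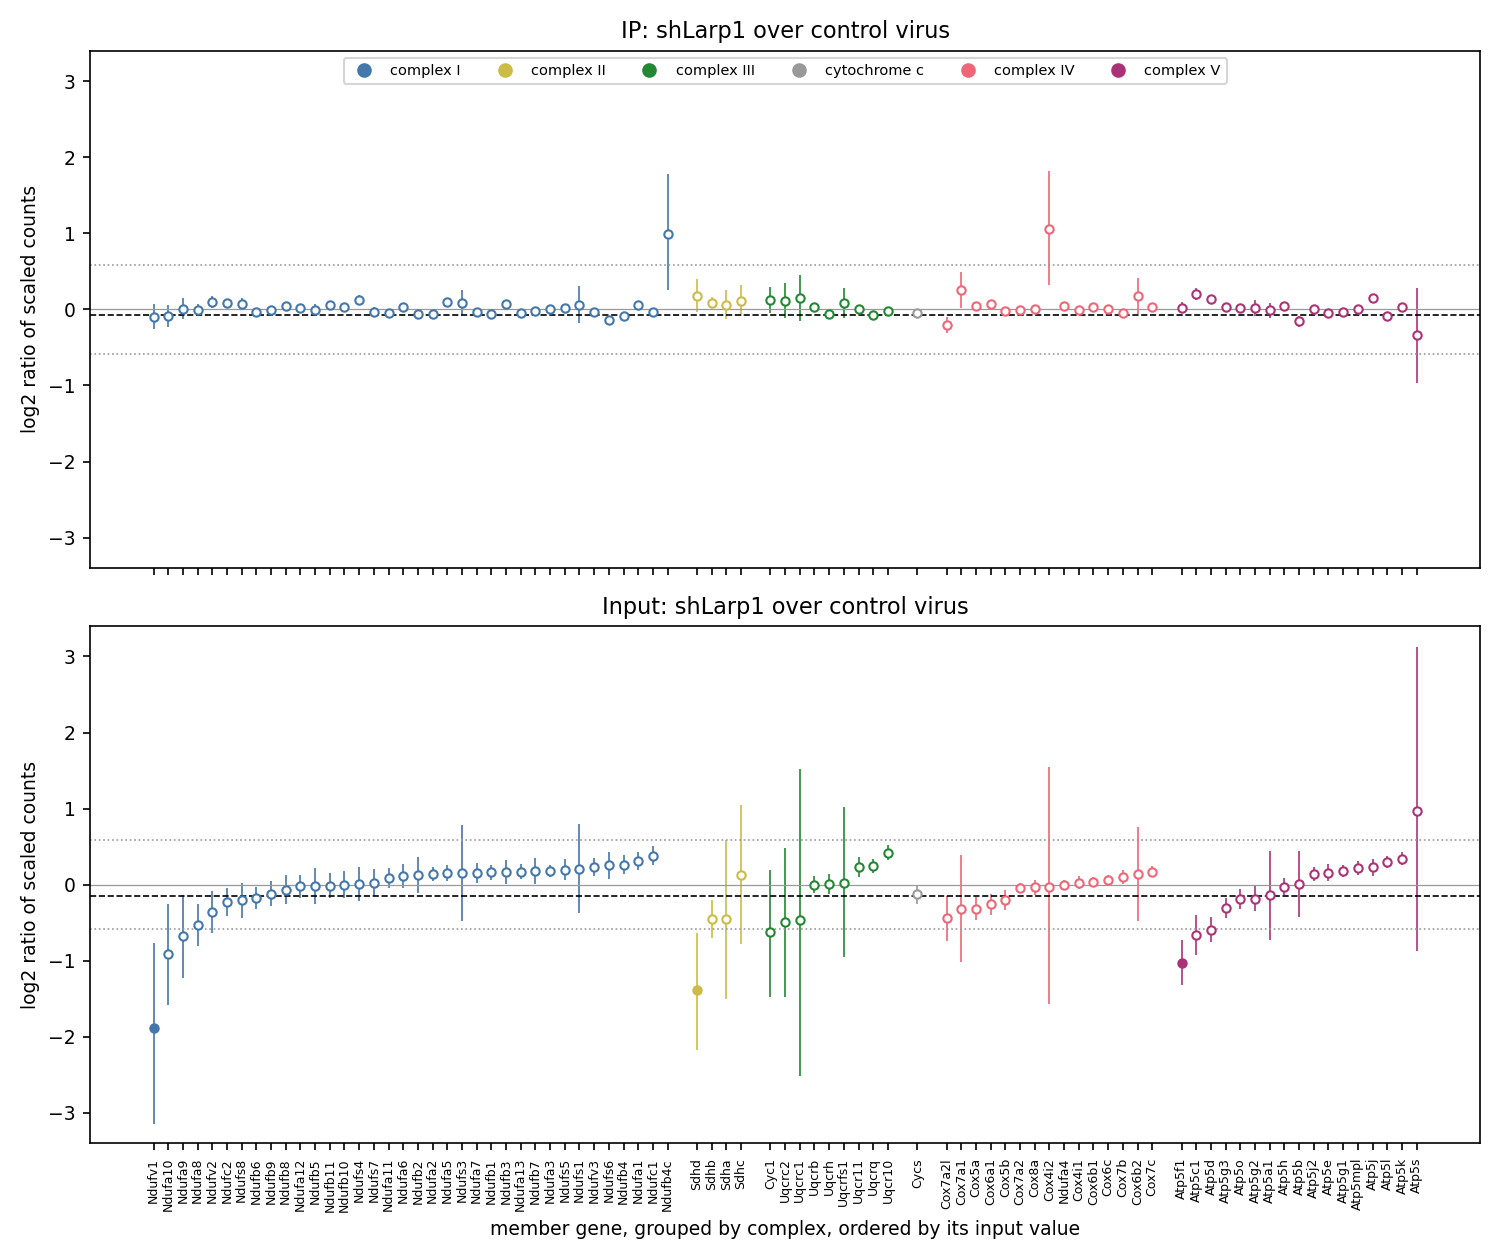
Log2 ratio of shLarp1 over control virus for each member in IP (upper panel) and input (lower panel), by complex, with exact 95% counting intervals (vertical bars). The dashed line is the median of all genes, dotted lines mark 1.5-fold, and filled points are called members. 1 member is not drawn. IP values lie near 0 apart from the low-count genes Ndufb4c, Cox4i2 and Atp5s, while Ndufv1, Sdhd and Atp5f1 are filled in input.

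Complex I has a core that carries flavin and iron-sulfur clusters, encoded in the nucleus by 7 genes, and a shell of accessory subunits. In the control IP counts were highest for the accessory genes Ndufb1 and Ndufa2, while in both inputs the accessory gene Ndufa3 had most (2051 and 2663); counts were not divided by transcript length, so levels of different genes are not ranked. Ndufb1 had 7359, 7445 and 7536 counts in the control IP columns and 7934, 7908 and 7880 in the shLarp1 IP columns, a log2 value of -0.07 after scaling. Ndufa2 had 6841, 6978 and 7026 against 7257, 7337 and 7531, also -0.07. The shLarp1 columns of both genes are higher in raw counts and lie slightly below control once scaled. The highest value of complex I with at least 100 counts was 0.13 for Ndufs4, an accessory subunit needed for a stable enzyme (1314, 1289 and 1372 counts in control, 1670, 1592 and 1563 with shLarp1). The lowest was -0.13 for Ndufs6 (2006, 2016 and 2023 against 2010, 2046 and 2066). Medians were 0.06 over the 7 core genes and -0.01 over the 30 accessory genes. Ndufb4c, a further accessory gene with few counts, had 3, 0 and 20 counts in control IP and 17, 22 and 12 with shLarp1. Its value was 1.00 (0.26 to 1.77), not called, and its columns overlap.

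Complex II takes electrons from succinate in a catalytic head of Sdha, which holds the flavin, and Sdhb, which holds iron-sulfur clusters. Sdhc and Sdhd anchor it in the membrane. All 4 had values above the median of all genes in IP. Sdha had 136, 135 and 156 counts in control and 188, 154 and 153 with shLarp1 (0.06), and its columns overlap. Sdhb, the member with most counts, had 913, 861 and 942 against 1068, 1083 and 1059 (0.09). Sdhd had 98, 103 and 121 against 133, 131 and 142, the highest value of the complex at 0.18 (-0.03 to 0.40). The raw counts of Sdhb and Sdhd were higher in every shLarp1 column than in every control column, but their intervals stay within 1.5-fold.

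In complex III, Cyc1 (cytochrome c1) and Uqcrfs1 (the Rieske iron-sulfur protein) pass the electrons on, and Uqcrc1 and Uqcrc2 are the core proteins. The most counts belonged to the small subunits Uqcrq and Uqcr10. Uqcrq had 6513, 6703 and 6526 counts in control IP and 7054, 6899 and 6945 with shLarp1, the lowest value of the complex at -0.07. Uqcr10 had 4997, 5133 and 5120 against 5571, 5528 and 5530 (-0.03). Uqcrc1 had the highest value, 0.15 (-0.15 to 0.45), from 58, 66 and 49 against 63, 77 and 73 counts. The 4 redox and core proteins together had a ratio of 0.11 (0.01 to 0.22), and the 5 small subunits -0.03 (-0.05 to -0.02). Cycs, the mobile carrier that also takes part in apoptosis, had 2884, 3032 and 3006 counts in control IP and 3257, 3206 and 3143 with shLarp1 (-0.05).

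Complex IV reduces oxygen. Its catalytic center is encoded in the mitochondria, and the nuclear subunits surround it, several with isoforms that mark muscle, lung or other tissues. Cox6c had 14892, 14911 and 14895 counts in control IP and 16806, 16561 and 16537 with shLarp1 (0.01). Cox6b1 had 13559, 13952 and 13674 against 15571, 15486 and 15519 (0.03). Ndufa4, which keeps its complex I name, had 13640, 13456 and 13378 against 15412, 15388 and 15398 (0.04). These 3 genes are among the most precisely measured members and lay within 0.04 of no change. The 11 common subunits together had a ratio of 0.01 (0.00 to 0.02).

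Isoform families of complex IV were followed gene by gene. Cox4i1, the ubiquitous isoform, had 7709, 7952 and 7771 counts in control IP and 8590, 8575 and 8657 with shLarp1 (-0.01). Cox4i2, known as the lung and hypoxia isoform, had 11, 3 and 9 against 14, 20 and 19, with a value of 1.05 (0.32 to 1.83). Its columns did not overlap, yet the lower limit of its interval lies under 1.5-fold. Cox6a1 (liver type) had 3485, 3492 and 3585 against 4127, 4158 and 4074 (0.07), and Cox6a2 (heart and muscle type) had 41 counts in control and 50 with shLarp1, too few to pass the filter. Cox6b2, the testis isoform, had 75, 83 and 106 against 122, 95 and 115 (0.18), and its columns overlap.

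Of the Cox7a genes, Cox7a2 had 11437, 11481 and 11341 counts in control IP and 12663, 12669 and 12619 with shLarp1 (0.00). The muscle isoform Cox7a1 had 80, 94 and 94 against 122, 128 and 106, the highest value of complex IV among genes with at least 100 counts, 0.26 (0.02 to 0.49). Cox7a2l, a paralog that takes part in joining complexes III and IV, had 475, 507 and 468 against 497, 479 and 418, the lowest value at -0.21 (-0.32 to -0.10). Its columns overlap in raw counts. Cox7b had 7662, 7885 and 7757 against 8366, 8345 and 8282 (-0.05), and Cox8a had 4957, 4844 and 4920 against 5381, 5498 and 5526 (0.00). Ndufa4l2, a hypoxia-induced relative of Ndufa4, had 6, 6 and 13 against 12, 16 and 15 and did not pass the filter.

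Complex V joins the F1 head and central stalk, where ATP is made, to a ring of c subunits in the membrane by a peripheral stalk. Atp5k had 9081, 8937 and 8956 counts in control IP and 10289, 10289 and 10007 with shLarp1 (0.03). Atp5l had 7587, 7627 and 7610 against 8029, 7888 and 7993 (-0.09). Both are small membrane subunits. Atp5c1, the gamma subunit of the central stalk, had 799, 851 and 836 against 1031, 1094 and 1056, the highest value of the complex at 0.20 (0.13 to 0.28). Atp5b, the catalytic beta subunit, had 1149, 1112 and 1099 against 1106, 1161 and 1083, the lowest among those with at least 100 counts at -0.16 (-0.23 to -0.09). The gamma and beta subunits were named because they are these extremes, so the gap between their intervals is no test of a difference.

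The 3 genes for subunit c encode the same mature protein. Atp5g1 had 5892, 5786 and 5931 counts in control IP and 6483, 6364 and 6266 with shLarp1 (-0.03), Atp5g2 had 461, 512 and 443 against 501, 569 and 521 (0.02), and Atp5g3 had 4099, 4175 and 4212 against 4764, 4618 and 4745 (0.03). All 3 lay between -0.03 and 0.03 in IP. The 4 members with a pyrimidine tract at the annotated start had IP values of 0.06 (Ndufb11), 0.08 (Uqcrfs1), 0.14 (Atp5d) and 0.02 (Atp5g2), with a median of 0.07. The other 64 members with an entry had a median of 0.01. Members with the NRF1 motif (21) had a median of 0.03 and those without (47) of 0.01.

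The input gave a more uneven picture at lower depth. Of 82 members evaluated, 3 were called lower and 0 higher, where 0.171% of all 7588 genes were called higher and 1.01% lower. The median of the members was 0.01, against -0.14 over all genes, and 56 of the 82 lay above the latter. Within ±0.2 lay 45 of the 82. The called genes were Ndufv1 and Sdhd, which rest on few counts, and Atp5f1, with 273 counts in control and 154 with shLarp1.

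Ndufv1, the core subunit of complex I that binds NADH and flavin, had 7, 15 and 7 counts in the control input and 3, 3 and 3 in the shLarp1 input. Its value was -1.89 (-3.15 to -0.77), a 3.69-fold lower level. Sdhd had 26, 10 and 14 against 13, 6 and 3 (-1.38, -2.18 to -0.63); its columns overlap, and 26 of its 50 control counts came from 1 column. Atp5f1, subunit b of the peripheral stalk, had 88, 79 and 106 against 60, 47 and 47 (-1.02, -1.32 to -0.73). For Ndufv1 and Atp5f1 every shLarp1 column lay below every control column even in raw counts, although the shLarp1 input holds more counts in all.

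These calls depended on the scaling. With DESeq2's size factors, and with TMM referred to a control IP column, 0 members were called in input; with total counts Atp5c1 and Atp5d were called lower too. Leaving out a single input column also set the scaling anew and moved the member median to between 0.21 and 0.25. Without column 2 or column 3 of the shLarp1 input 0 members were then called, without column 1 or 3 of the control input only Ndufv1, and without the remaining input columns Sdhd and Atp5f1. With the filter and the scaling kept from all columns, a run added after seeing the data, 2 or 3 members were called each time. The call of Atp5f1 was then lost only without column 3 of the control input (-0.90) and that of Ndufv1 only without its column 2 (-1.42), while that of Sdhd was lost without column 1 of the control input or column 2 or 3 of the shLarp1 input. Each member was also set against the other genes of its own complex, a ratio that needs no scaling and was added after seeing the data. Ndufv1 then had -1.95, with an upper limit of -0.89, and Atp5f1 -1.14 (-1.42 to -0.85), both called. By that measure Sdhd had -0.95 (-1.70 to -0.20), which is not called, and no member was called in IP. Along with the virus the makeup of the input differed: 773 genes at least 4 times as frequent in input as in IP after scaling (mean over both viruses) held 56.1% of the control input and 65.2% of the shLarp1 input, and the pan-neuronal markers 0.184% and 0.0972%. Of these 10 markers only Uchl1 was called lower (1772 and 935 counts, -1.12), and the other 9 held 0.0798% and 0.0562%. The list median was -0.22, and 4 of the 10 lay above the median of all genes. Sensory neuron markers held 0.0210% and 0.0132% of the inputs, macrophage markers 0.0126% and 0.00680%, vessel markers 0.0105% and 0.00553% (2 of 6 at 0 with shLarp1), and fibroblast markers 0.0291% and 0.0314% (1 of 8 at 0 in both). Their part in the input values was not tested.

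Input values were also set side by side by the role of the subunit, with no test of the classes, whose members overlap. Another scaling shifts every input value by the same amount (member medians from -0.22 with total counts to 0.24 with the control IP reference), so signs can turn while the differences between genes stay. In complex I the 7 core genes had a median of -0.21, from -1.89 for Ndufv1 to 0.21 for Ndufs1, with Ndufs3 at 0.15 and Ndufs7 at 0.03. The 29 accessory genes evaluated had a median of 0.13. The accessory genes Ndufa10, Ndufa9 and Ndufa8 had -0.91, -0.67 and -0.53. The small accessory subunits Ndufc1 (0.38), Ndufa1 (0.31) and Ndufb4 (0.26) stood at the other end. Of these genes only Ndufv1 passed the 1.5-fold rule. In complex II the median was -0.45, with Sdhb at -0.45 (101, 103 and 90 counts against 83, 74 and 89) and Sdha at -0.45 (6, 8 and 5 against 3, 5 and 8). Sdhc went the other way at 0.12 (-0.78 to 1.05), on 20 and 25 counts.

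In complex III the 4 redox and core proteins had a median of -0.47 on few counts, with Cyc1 at -0.63 (13, 7 and 11 against 6, 12 and 5), and overlapping columns. Uqcrfs1 of the same class had 0.025. The small subunits had a median of 0.23, led by Uqcr10 at 0.42 (0.32 to 0.52), from 477, 423 and 430 counts against 651, 673 and 716. In complex IV the matrix-side subunit Cox5a had -0.31 and Cox6a1 -0.26, against 0.17 for Cox7c. In complex V Atp5c1 had 92, 97 and 96 counts against 74, 71 and 62 (-0.66), and Atp5d, the delta subunit of the central stalk, 242, 232 and 253 against 198, 182 and 173 (-0.59). Both genes were lower in every shLarp1 column. The small membrane subunits had a median of 0.26, with Atp5k at 0.34 and Atp5l at 0.30. Summed by class, the F1 head and central stalk had -0.13 (-0.21 to -0.05) and the small membrane subunits 0.26 (0.22 to 0.30), intervals that do not meet. Of the 5 genes of the F1 class only Atp5c1 and Atp5d had intervals below 0: Atp5e, the epsilon subunit, had 0.16 (0.05 to 0.27), Atp5b 0.008 and Atp5a1 -0.14 (-0.73 to 0.45). The classes follow textbook roles and were set after the counts had been seen.

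**Figure D2:**
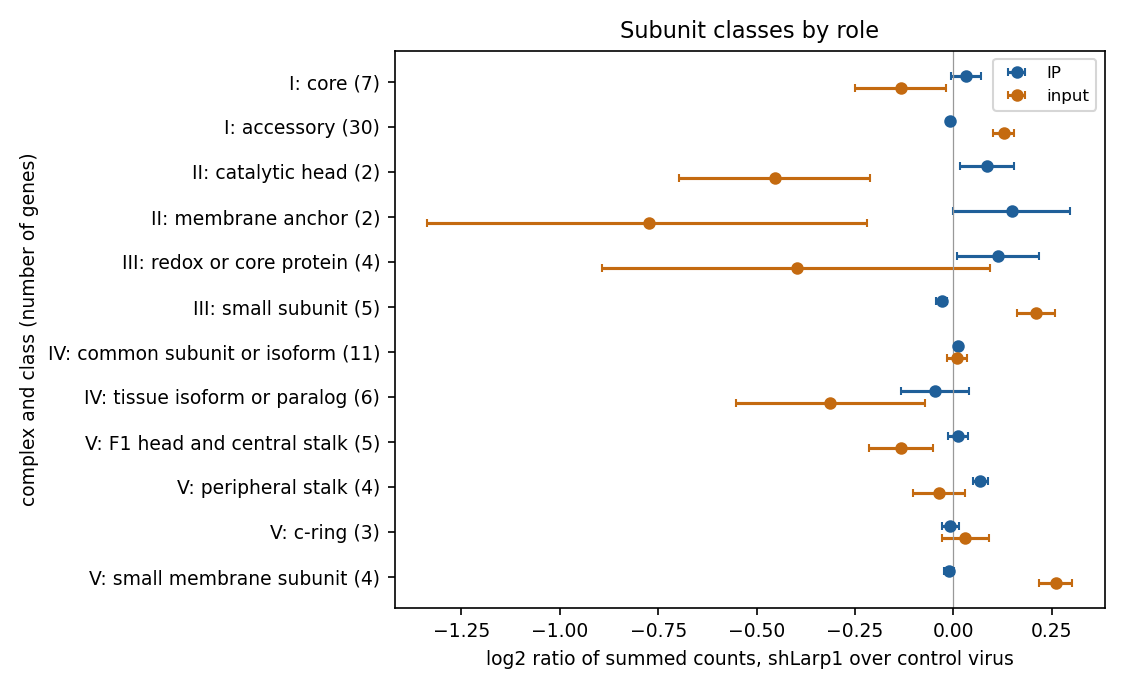
Log2 ratio of summed counts, shLarp1 over control virus, for subunit classes of each complex (vertical axis, with the number of genes), in IP (blue) and input (orange). Bars are exact 95% counting intervals. IP points lie between -0.05 and 0.15, while input points run from -0.77 for the 2 membrane anchors of complex II (Sdhd at -1.38 and Sdhc at 0.12) to 0.26 for the small membrane subunits of complex V.

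The difference between the IP and the input response was examined as the interaction of virus and fraction. Of 82 members, 4 were called higher in IP than in input and 0 lower; over all 7581 genes 1.39% were called higher and 5.58% lower. They were Ndufv1 (1.74, 0.67 to 2.80), Sdhd (1.55, 0.80 to 2.29), Atp5f1 (1.05, 0.75 to 1.34) and Atp5c1 (0.86, 0.59 to 1.13). All 4 had IP values between -0.10 and 0.20 and input values at or below -0.66. The lowest value among members with at least 100 counts in every group was -0.45 for Uqcr10. With DESeq2's size factors Sdhd alone was called (1.34). Without column 2 or column 3 of the shLarp1 input, which also set the scaling anew, none was called, and without any other single input column 2 members were. With the scaling kept from all columns, Atp5f1 was called whichever column was left out (0.93 to 1.17), and without column 2 or column 3 of the shLarp1 input it was the only one; Sdhd then had 1.40 and 1.17.

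IP over input compares RNA on tagged ribosomes with that of the whole culture. With the control virus 2 members were called higher and 2 lower, where 23% of all 8773 genes were called higher and 12.5% lower. The median of the members was 0.07, against 0.38 over all genes, and 12 of 82 with input counts lay above the latter. Higher were the alpha and beta subunits of the F1 head. Atp5b had 1149, 1112 and 1099 counts in IP and 30, 23 and 32 in input (1.87, 1.56 to 2.20). Atp5a1, the alpha subunit, had 496, 535 and 516 against 15, 21 and 14 (1.52, 1.11 to 1.95). An IP column holds far more counts in all than an input column, so raw columns of the 2 fractions cannot be compared.

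Lower in IP than in input were Atp5g2 and Atp5g1, which encode subunit c. Atp5g2 had 461, 512 and 443 counts in IP and 239, 208 and 202 in input, which after scaling is -2.31 (-2.45 to -2.17), 4.96-fold lower. Atp5g1 had 5892, 5786 and 5931 against 869, 804 and 892 (-0.66, -0.72 to -0.60). With total counts the value of Atp5g1 turned to 0.31, and its call was lost with DESeq2's size factors (-0.55) and without the filter (-0.48). It was also lost without any 1 input column or column 2 of the control IP, each with the scaling set anew (-0.65 to -0.57). Atp5g3, which codes for the same mature protein, had 0.31 with the control virus. Atp5g2 is the only member among these 773 genes of the input. Ndufb4c had 0 counts in both inputs, where 3 counts are the limit that 0 allows.

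With the shLarp1 virus 8 members were called higher and 4 lower, where 25.9% of all 8771 genes were called higher and 13.1% lower. The member median was 0.09, against 0.64 over all genes. Among the higher ones were Ndufv1 (2.78), Uqcrc1 (2.02), Atp5b (1.70), Atp5a1 (1.65), Sdha (1.56), Cyc1 (1.41) and Ndufa10 (1.18). Of these, Ndufv1, Uqcrc1, Sdha, Cyc1 and Ndufa10 had 9, 5, 16, 23 and 33 counts in the shLarp1 input. Lower were Atp5g2 (-2.11), Ndufs1 (-1.05), Atp5g1 (-0.87) and Ndufb4 (-0.77). Ndufs1, the largest subunit of complex I, had 100, 102 and 107 counts in IP against 23, 20 and 18 in input, while Ndufb4 had 2564, 2600 and 2435 against 392, 428 and 418. Atp5a1, Atp5b, Atp5g1 and Atp5g2 were called in the same direction with both viruses. These ratios depend on how IP and input are scaled: with total counts 62 members were called higher and 1 lower with the control virus, and 76 and 1 with shLarp1. With upper-quartile factors the split was 2 and 19, and 4 and 18. The member median minus the all-gene median, which no scaling can move, was -0.31 with the control virus, and -0.19 without the filter on low counts.

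**Figure D3:**
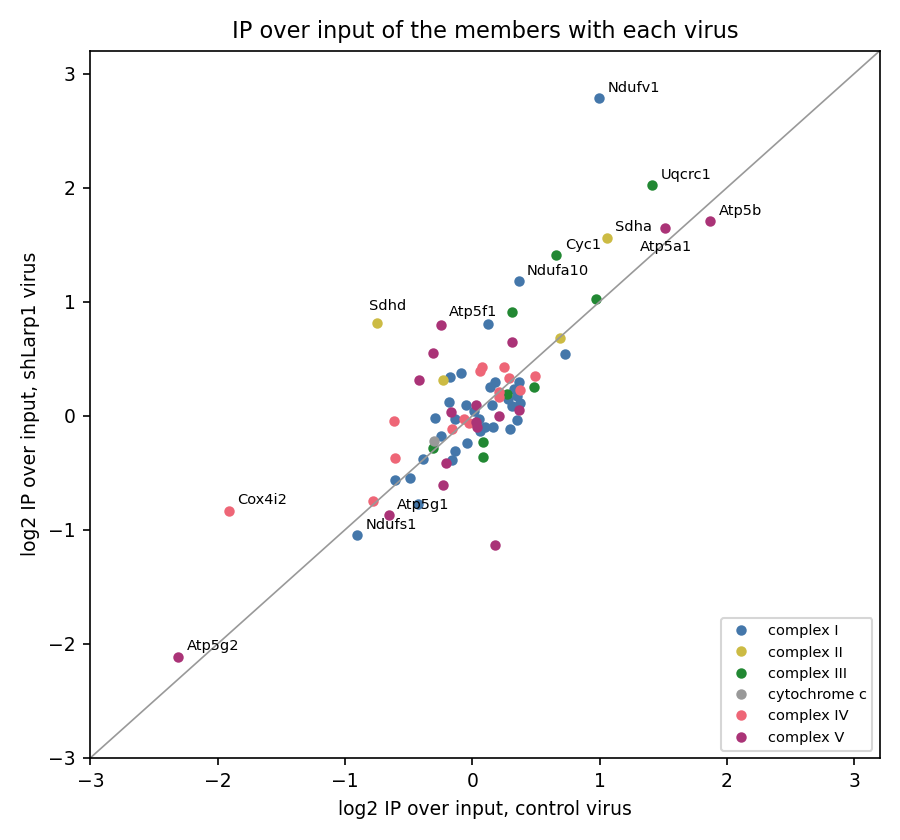
Log2 IP over input of each member with the control virus (horizontal axis) and with the shLarp1 virus (vertical axis), colored by complex, with 1 member not drawn; the line marks equal values. Atp5a1 and Atp5b lie high and Atp5g2 low with both viruses, and Ndufv1, Sdhd and Atp5f1 lie above the line.

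As a share of all counts, which amounts to scaling by total counts, the 85 genes held 8.73% of the control IP (8.71% to 8.75%), 9.56% of the shLarp1 IP, 4.27% of the control input and 3.84% of the shLarp1 input. Complex I held 2.79%, 3.04%, 1.37% and 1.27% in the same order, complex II 0.0407%, 0.0475%, 0.0226% and 0.0136%, and complex III 0.759%, 0.815%, 0.357% and 0.350%. Complex IV held 3.11%, 3.42%, 1.41% and 1.21%, and complex V 1.94%, 2.14%, 1.05% and 0.959%. In each of the 5 complexes the share was higher with shLarp1 in IP and lower with shLarp1 in input; for complex III in input the intervals overlap. After TMM scaling the input direction was the opposite for complexes I (0.12, 0.09 to 0.14), III (0.20, 0.16 to 0.25) and V (0.10, 0.07 to 0.13), while complex II had -0.51 (-0.73 to -0.29) and complex IV 0.005 (-0.02 to 0.03). In IP the TMM values of complexes I and III, given above, were below 0. Every complex held a larger share of IP than of input, but with total counts most genes rise. The control virus median of IP over input was then 1.34 over all genes and 1.03 over members. With TMM, summed IP over input of complexes I to V was 0.06, -0.12, 0.12, 0.17 and -0.08 with the control virus. With shLarp1 it was -0.06, 0.48, -0.11, 0.18 and -0.17. The columns of a group were close together: for all members they ran from 8.71% to 8.75% in control IP and from 9.54% to 9.58% in shLarp1 IP.

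**Figure D4:**
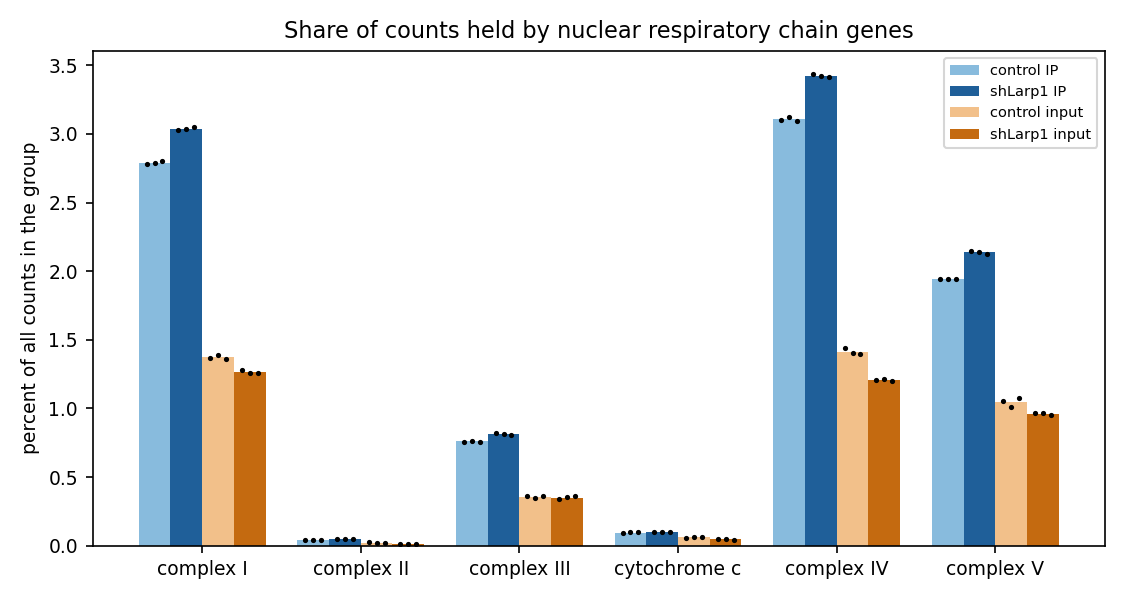
Share of all counts (percent, bars for the summed group) held by the genes of each complex in the 4 groups; black points are the 3 columns of a group. Complexes IV and I hold most, with 3.11% and 2.79% of the control IP, and every complex holds a larger share of IP than of input. With total counts, as here, the median gene of the whole count table is also higher in IP than in input (1.34 with the control virus).

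Subunits encoded in the mitochondria complete complexes I, III, IV and V. Their mRNAs are read by mitochondrial ribosomes, which lack the tag. Against the nuclear subunits of the same complex, a ratio that needs no scaling, complex I had 0.0327 mitochondrial counts per nuclear count in control IP and 0.0217 in shLarp1 IP, a log2 change of -0.59 (-0.64 to -0.54). Complex III had 0.0314 and 0.0201 (-0.64), complex IV 0.0757 and 0.0446 (-0.76), and complex V 0.0259 and 0.0140 (-0.89, -0.96 to -0.82). In all 4 complexes the IP ratio was lower with shLarp1, with intervals that exclude no change. In input the ratios were 0.151 and 0.170 for complex I, 0.111 and 0.109 for complex III, 0.184 and 0.214 for complex IV, and 0.0960 and 0.110 for complex V. There the changes were 0.17, -0.03, 0.22 and 0.20, and that of complex III has an interval that includes 0 (-0.19 to 0.12). Of the 13 mitochondrial genes 5 were called lower in IP (mt-Nd1, mt-Co1, mt-Co2, mt-Co3 and mt-Atp6), with a median of -0.67 over the 13, and 0 in input. Over all 8766 genes 4.4% were called lower in IP, with a median of -0.08. In the interaction 8 of the 13 were called lower, against 5.58% of all 7581 genes. Summed, the 13 genes had an IP over input of -1.57 with the control virus and -2.55 with shLarp1. The 773 genes at least 4 times as frequent in input as in IP also fell in IP, with a median of -0.48. Whether the fall is particular to mitochondrial mRNAs was not tested. The part of mitochondrial RNA carried over into the IP was not measured.

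**Figure D5:**
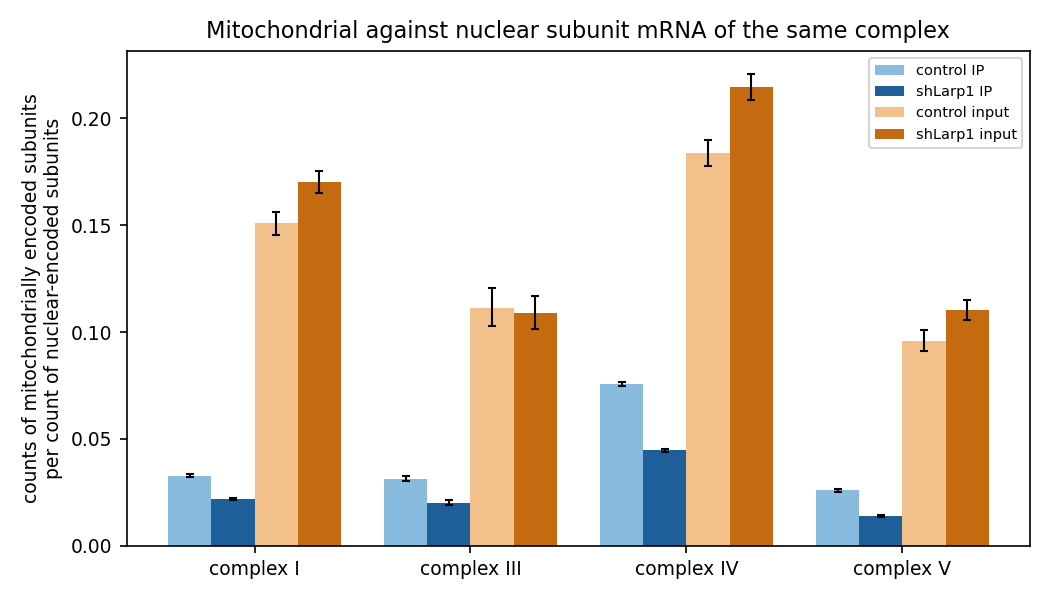
Counts of mitochondrially encoded subunits per count of nuclear-encoded subunits of the same complex in the 4 groups, with exact 95% counting intervals. In IP the ratio is lower with shLarp1 in all 4 complexes (0.0327 to 0.0217 in complex I), and each input ratio lies above both IP ratios of its complex.

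Other genes of the pathway were counted from lists. Of 51 assembly factors 39 were evaluated: 0 were called in IP and 0 in input, and Coa4, a factor for complex IV, was called lower in the interaction (-1.05), with 3165 and 2227 counts in the IP groups and 1707 and 2561 in the inputs. Of 15 regulators of these genes and of mitochondrial DNA, Pprc1, Yy1 and Lrpprc had enough counts, and 0 were called in IP or input. Of 13 enzymes of the tricarboxylic acid cycle 12 were evaluated and 0 were called in IP or input; Dld, shared by several dehydrogenases, was called lower in the interaction (-1.06). Of 6 carriers and porins, the adenine nucleotide carriers Slc25a4 (350 and 209 counts, -0.94) and Slc25a5 (175 and 91 counts, -1.14) were called lower in input and higher in the interaction (1.03 and 1.08). In IP both lay near 0 (0.09 and -0.06). Atpif1, the inhibitor of ATP synthase, had 25343 and 28965 counts in IP (0.04) and 1495 and 2089 in input (0.29), not called.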

How the data were processed

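RNA was measured by nanopore cDNA-PCR sequencing in 4 groups of 3 columns. The authors deposited estimated counts of each gene, all of them whole numbers. Salmon, minimap2 and the builds mm39 and GRCm39 are named in the submitters' processing notes. Their versions and any use of strand in counting were not given in the sources used here. The cells were cultured per the labels, while the extraction text speaks of freshly collected ganglia. The members and lists were chosen with earlier results of these data known, and subunit classes were set after the counts had been seen. Genes were filtered with filterByExpr over all columns (minimum count 10, 8773 genes), and columns were scaled by TMM in edgeR 4.0.16 (R 4.3.3). Counts and scaled column sizes were then summed per group. Intervals are exact (Clopper-Pearson, 95%) with these exceptions. For the interaction and for members set against their complex, 0.5 counts were added and a normal approximation used. The change in mitochondrial counts per nuclear count used that approximation without added counts. The interval rule was tested on simulated Poisson counts, which hold only the counting error that the intervals assume. With no PCR copies and no variation between cultures in them, that test cannot show how the rule fares with either. Alternatives were DESeq2 1.42.0, edgeR's quasi-likelihood test with columns as replicates, other scalings, filters and thresholds, and leaving out each column. Named members are those called, those with the 2 highest counts and the extreme IP values of each complex, isoform families, and pathway genes that were called; other members were added as examples after their values were seen. Cox7b2, Cox8b and Cox8c were not analysed here. Symbols came from a gene name table, motifs from RefSeq promoters of GRCm38.p6, and coordinates are of that build. The values of 1 member are not reported here, though it is in the counts and medians. Overlapping genes and close copies may share reads.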

Additional observations from a re-analysis of the deposited data

Results flagged for a closer look

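In 4 members the response to the shLarp1 virus differed between IP and input, with the whole interval of the difference beyond 1.5-fold. The difference was 1.74 on the log2 scale for Ndufv1, 1.55 for Sdhd, 0.86 for Atp5c1 and 1.05 for Atp5f1. The IP values were between -0.10 and 0.20, with Atp5c1 at 0.20 (0.13 to 0.28), and the input value was lower in each. The input counts were 29 and 9 for Ndufv1, 50 and 22 for Sdhd, 285 and 207 for Atp5c1, and 273 and 154 for Atp5f1, in control and shLarp1. The carriers Slc25a4 and Slc25a5 and the neuronal gene Uchl1 (1772 and 935 input counts) were called higher in the same comparison. The share of counts held by pan-neuronal markers in input was 0.184% with the control virus and 0.0972% with shLarp1, and 0.0798% and 0.0562% without Uchl1, which is one of them; its part in these differences was not tested.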

How the results depend on the processing

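Calls in IP stayed at 0 under every scaling, without the filter and without any 1 column when the scaling was set anew. With the scaling kept, Ndufb4c was called without column 3 of the control IP. Member medians as reported were 0.02 in IP, 0.01 in input, 0.03 for the interaction, and 0.07 and 0.09 for IP over input with control and shLarp1 virus. With DESeq2's size factors 0 members were called in input and 1 in the interaction, with medians of 0.22 and -0.17. With upper-quartile factors the IP median was 0.14, and IP over input had 21 and 22 calls with medians of -0.42 and -0.41. With total counts the medians were 0.15 in IP, -0.22 in input, 0.39 for the interaction, and 1.03 and 1.42 for IP over input, with 5, 8, 63 and 77 calls outside IP. There the sign turned for Atp5g1 (0.31 and 0.46), Ndufb4 (0.55) and Ndufs1 (0.28) in IP over input. With TMM referred to a control IP column the medians were 0.088, 0.24 and -0.13, with 0 calls in input and 2 in the interaction, and -0.083 for IP over input with shLarp1. Without the filter the IP over input medians were 0.23 and 0.26.

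Over all genes the split of higher against lower calls in input was 13 and 77 with TMM, 181 and 35 with DESeq2's factors, 117 and 43 with upper quartiles, 7 and 203 with total counts, and 214 and 29 with the other TMM reference. In IP it was 63 and 386, and 104 and 207 with upper quartiles, 105 and 205 with total counts, and 79 and 273 with the other TMM reference. For the interaction it was 105 and 423, and 396 and 139 with total counts. For IP over input it was 2021 and 1095, and 1293 and 1590 with upper quartiles, 4509 and 652 with total counts (control virus), and 2274 and 1147, 1328 and 1489, and 6147 and 752 (shLarp1). The distance of the member median from the all-gene median, which no scaling can move, was 0.09 in IP and 0.15 in input, and 0.10 and 0.21 without the filter. It depends on which genes are taken: the 6815 genes outside the sets of 773 and 1185 had medians of -0.01 in IP and -0.20 in input. Leaving out an input column moved the input distance both ways. Without column 1 of the control input the medians were 0.23 for members and 0.059 over all genes. Without column 3 of the shLarp1 input they were 0.21 and 0.15.

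In the order IP, input, interaction, IP over input with control and with shLarp1 virus, intervals that only exclude no change gave 37, 46, 42, 63 and 67 members, and a limit of 1.2-fold gave 1, 8, 10, 23 and 31. For these limits the calls over all genes are not given here. Columns taken as replicates in edgeR's quasi-likelihood test gave 18, 28, 32, 60 and 64 without a replicate block. Over all 8773 genes that test called 2442, 780, 974, 4861 and 5367. With the replicate number as a replicate block it gave 16, 30, 32, 59 and 64, against 2307, 750, 950, 4772 and 5269. DESeq2 gave 9, 43, 40, 59 and 61, against 1877, 907, 962, 4642 and 4726. In input the members called were 17 higher and 11 lower with edgeR without the block, and 38 and 5 with DESeq2. The split over all genes is not given here for these tests. By the interval rule, DESeq2's size factors alone moved it from 13 higher and 77 lower to 181 and 35. These tests treat columns as separate samples, although columns of a group differed by little more than the sampling noise. Leaving out 1 column, with the scaling set anew, gave 0 to 0, 0 to 3, 0 to 5, 3 to 4 and 9 to 13 calls, with medians of 0.015 to 0.10, -0.0073 to 0.25, -0.13 to 0.05, 0.07 to 0.14 and -0.01 to 0.14. With the scaling kept, a run added after seeing the data, it gave 0 to 1, 2 to 3, 1 to 4, 3 to 5 and 9 to 12 calls, with medians of 0.012 to 0.022, -0.017 to 0.028, -0.016 to 0.026, 0.049 to 0.098 and 0.074 to 0.10. With nuclear genes alone as denominator, members held 8.79% and 9.61% of the control and shLarp1 IP. Without Ndufb1, a run added after seeing the data, the member median was 0.018 in IP and 0.0080 in input. Counts per kilobase of coding length were not run, since no lengths were used here. Depth limits the input: 12 members had fewer than 30 counts in the control input and 14 in the shLarp1 input.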
